A study of Homo sapiens with 20 samples.

Results

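The RNA-binding proteins described here are 10 regulators of alternative splicing: MBNL1, MBNL2 and MBNL3, PTBP1, PTBP2 and PTBP3, QKI, CELF1, ESRP2 and RBFOX2. The rule that chose them used gene symbols and no measured value, though earlier results of these data were known. The skipped exon table for FUBP1 depletion held 38 events of these genes among 19792, the table for U3 depletion 71 among 32990, and the table for FBL depletion 24 among 7065. All 10 genes were present among the 28278 genes of the FUBP1 RNA immunoprecipitation (RIP) table. RBFOX2 had no event in any of the 3 junction tables and PTBP2 none in that for FBL depletion, so that these were measured elsewhere only.

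All samples came from HepG2, a human liver cancer cell line, and all were transfected. FUBP1, a KH-domain RNA-binding protein, was depleted with siFUBP1 for 48 h against the control siRNA siCtrl2 (3 libraries each). U3, the box C/D small nucleolar RNA of ribosomal RNA processing, was depleted with an antisense oligonucleotide (U3 ASO) for 72 h against GFP ASO (3 libraries each). FBL, the 2′-O-methyltransferase fibrillarin, was depleted with siFBL for 48 h against siCtrl, and both conditions were sequenced as FUBP1 RIP and as input (2 libraries in each of the 4 groups). The study's methods describe the libraries of a group as biological replicates.

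MBNL proteins bind YGCY tetramers and favour the splicing patterns of differentiated tissue, and CELF1, a binder of GU-rich RNA, acts against them at many exons. PTBP proteins bind pyrimidine-rich tracts and mostly repress exons. PTBP1 is the form of most tissues and PTBP2 the form of neurons. QKI binds ACUAA-type elements, RBFOX2 binds UGCAUG, and ESRP2 belongs to the epithelial splicing regulators. Several of these genes splice their own transcripts or those of their paralogs, often through exons whose skipping or inclusion leads to decay of the mRNA.

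Junction reads of a library, summed over all listed events, ran from 2693397 to 4474350 in the FUBP1 comparison and from 11249641 to 13321799 in the U3 comparison. In the FBL comparison they ran from 910779 to 1142189, so single exons were measured most poorly there. A junction used by several events counts several times in these sums. FUBP1 itself fell from 45.2 to 56.1 junction reads per 1000000 in siCtrl2 to 4.08 to 10.1 in siFUBP1. In the U3 comparison it was at 56.9 to 64.0 in GFP ASO and at 38.7 to 43.4 in U3 ASO. Hepatocyte markers were abundant in the RIP table (9 of 9 listed, ALB at a mean count of 337272), while 8 markers of other cell types ranged from 0.172 for the muscle factor MYOD1 to 64.8 for the endothelial marker PECAM1. Of these 8, PECAM1 and COL1A1 (33.2) exceeded a mean count of 10.

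The exons of the members numbered 45 over the 3 tables, of which 19 were listed in all 3. They were 31 to 963 bases long, 24 had a length divisible by 3, and 33 were coding throughout in at least 1 transcript of GENCODE release 44 on hg38. No annotated exon matched 6 of them. Short exons that MBNL and PTBP paralogs share are printed below with the 20 intron bases before and the 6 after the exon, read 5′ to 3′ from hg38 with the exon in capitals, because their inclusion differed widely between paralogs.
MBNL1 36-base exon: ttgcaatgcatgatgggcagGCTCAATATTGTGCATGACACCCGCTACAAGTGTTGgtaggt
MBNL2 36-base exon: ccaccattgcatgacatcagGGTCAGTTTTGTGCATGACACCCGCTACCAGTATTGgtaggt
MBNL3 36-base exon: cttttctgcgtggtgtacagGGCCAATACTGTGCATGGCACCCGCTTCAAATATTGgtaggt
PTBP1 34-base exon: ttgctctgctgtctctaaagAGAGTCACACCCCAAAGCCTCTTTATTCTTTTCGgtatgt
PTBP2 34-base exon: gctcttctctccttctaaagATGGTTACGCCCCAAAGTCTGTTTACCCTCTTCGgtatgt
MBNL1 54-base exon: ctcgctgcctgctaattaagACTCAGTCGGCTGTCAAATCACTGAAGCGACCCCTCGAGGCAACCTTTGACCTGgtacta

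The MBNL 36-base exons lie at chr3:152455542-152455577 (plus strand, exon 7 of 10 of the canonical MBNL1 transcript), chr13:97365136-97365171 (plus strand, exon 8 of 9 of MBNL2) and chrX:132384663-132384698 (minus strand, exon 7 of 9 of MBNL3), and all are coding in those transcripts. The MBNL1 and MBNL2 copies shared 86.1% of their bases, MBNL1 and MBNL3 80.6%, and MBNL2 and MBNL3 77.8%. The PTBP 34-base exons, at chr19:807869-807902 (exon 11 of 15 of PTBP1) and chr1:96806419-96806452 (exon 10 of 14 of PTBP2), shared 73.5%. Each is coding and shifts the reading frame when skipped. The MBNL1 54-base exon at chr3:152446704-152446757 is coding in all 5 transcripts that hold it, is absent from the canonical transcript, and is known to carry part of the signal for nuclear localisation.

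Across libraries, the paralogous exons were used to very different degrees. Inclusion level is the length-scaled share of inclusion reads, from 0 to 1. Where an exon had several events, that with the most reads is given. The 36-base exon of MBNL1 was at 0.542, 0.577 and 0.825 in GFP ASO and at 0.590, 0.798 and 0.734 in U3 ASO. That of MBNL2 was at 0.0544, 0 and 0 in GFP ASO and at 0 in all 3 U3 ASO libraries. That of MBNL3 was at 0.973, 0.958 and 0.985 in GFP ASO and at 0.946, 0.988 and 0.98 in U3 ASO. In these events the 3 copies did not overlap over the 6 libraries, with MBNL3 highest and MBNL2 lowest, and no difference between genes was tested. In a second event of the MBNL1 exon, which joins it to a later exon and had 21.5 reads per library on average, it was at 1.0 in 5 libraries and at 0.722 in 1 U3 ASO library. In a second event of the MBNL2 exon, with 10.3 reads per library, it was at 0.484 in 1 GFP ASO library and at 0 in the other 5. The order of the copies is thus that of their best covered events. The MBNL2 copy was not listed for FUBP1 depletion, where MBNL1 ranged from 0.590 to 0.782 and MBNL3 from 0.836 to 1.0. In the shallow input libraries the MBNL1 copy was far more variable, at 0.754 and 0.103 in siCtrl and at 0 and 0.287 in siFBL from 19.8 reads per library on average, while the MBNL3 copy was at 1.0 and 1.0 and then at 1.0 and 0.981.

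The PTBP pair was as far apart. The 34-base exon of PTBP1, whose skipping shifts the frame, was included at 0.836, 0.984 and 0.971 in siCtrl2 and at 0.966, 0.989 and 0.983 in siFUBP1. The PTBP2 copy, which PTBP1 is known to repress, was at 0 in all 3 siCtrl2 libraries and at 0.213, 0 and 0 in siFUBP1, from 12.5 junction reads per library on average. In the U3 comparison the PTBP1 copy lay between 0.922 and 0.988 and the PTBP2 copy between 0 and 0.182. In the input libraries the PTBP1 copy was at 0.884 and 0.602 in siCtrl and at 1.0 and 0.962 in siFBL, without overlap and with an adjusted p of 0.874 by the quasi-binomial test. The MBNL2 36-base exon and the PTBP1 34-base exon fall outside the rule for named exons and were chosen after their values were seen, as paralogs of named exons.

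No exon of the members was called after FUBP1 depletion. Of 38 listed events, 32 had the mean of 10 junction reads per library that the test required. At an adjusted p under 0.1 the quasi-binomial test called 0 of them, beside 32 of 16213 events (0.197%) over the whole table. In that test the spread of an event came from limma's trend across events and not from the event's own libraries. The smallest adjusted p of a member event was 0.783. An unadjusted p under 0.05 was reached by 5 of the 32, beside 4.59% of all events. Limma on the log2 odds of inclusion also called none, with or without a variance trend. Of the 32 events 13 were included at 0.9 or above on average, 12 between 0.1 and 0.9, and 7 under 0.1, so that many had little room to move in one direction.

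Among the 5, the exon with the clearest separation was the 152-base exon of CELF1 at chr11:47499453-47499604 (minus strand, exon 3 of 15, partly coding). In the event that pairs it with an exon 53387 bases upstream, inclusion was 0.0606, 0.0482 and 0.0753 in siCtrl2 and 0.226, 0.209 and 0.224 in siFUBP1. All 3 siFUBP1 libraries lay above all 3 controls, and the adjusted p was 0.812. Groups did not overlap for 3 of the 32 events, beside 5.32% of all events, the others being a 40-base CELF1 exon and the 138-base MBNL3 exon. The same exon paired with the 72-base noncoding exon before it was at 1.0, 0.333 and 1.0 in siCtrl2 and at 1.0 in all 3 siFUBP1 libraries, so that this second event rested on 1 control library. These events share the exon and part of its reads. In the U3 comparison the exon of the first event was at 0.0943, 0.168 and 0.144 in GFP ASO and at 0.140, 0.180 and 0.181 in U3 ASO, which overlap. In the input libraries it was at 0 and 0.402 in siCtrl and at 0.125 and 0.0110 in siFBL, a spread within siCtrl wider than any difference between groups.

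The other 3 moved little. The QKI exon at chr6:163455279-163455421 (143 bases, exon 2 of 8, coding) was at 0.985, 0.995 and 0.996 in siCtrl2 and at 0.992, 0.880 and 0.976 in siFUBP1, where 1 library was low. The MBNL3 36-base exon was at 0.995, 1.0 and 0.972 in siCtrl2 and at 1.0, 0.951 and 0.836 in siFUBP1. The 264-base exon of MBNL2 at chr13:97346804-97347067 (exon 5 of 9, coding) was at 0.981, 0.853 and 1.0 in siCtrl2 and at 1.0 in each siFUBP1 library. In each of these the groups overlapped, and a single library lay farthest from the rest. The best measured exon of PTBP1, the 78-base exon at chr19:805492-805569 (exon 9 of 15, coding), was at 0.637 ± 0.0111 (SD, n = 3) in siCtrl2 and at 0.668 ± 0.0629 (SD, n = 3) in siFUBP1, and that of MBNL1, its 36-base exon, at 0.676 ± 0.0977 and 0.650 ± 0.0170 (SD, n = 3 each).

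After U3 depletion, 64 of 71 listed events were tested and 0 were called by the same test, beside 68 of 30110 (0.226%) over the table, with a smallest adjusted p of 0.845. An unadjusted p under 0.05 was reached by 2, beside 4.13% of all events, and limma on the log2 odds called none. The MBNL1 54-base exon was at 0.863, 0.899 and 0.890 in GFP ASO and at 0.486, 0.895 and 0.526 in U3 ASO. Inclusion was low in 2 of the 3 U3 ASO libraries and at the control level in the other, from 48 to 93 junction reads in each U3 ASO library. In the FUBP1 comparison the same exon stayed at 0.902 to 1.0 in all 6 libraries, and it had too few reads for a test in the input libraries. The 138-base exon of MBNL3 at chrX:132439435-132439572 (minus strand, noncoding in the 1 transcript that holds it) was at 0.230, 0.132 and 0.135 in GFP ASO and at 0.0833, 0.106 and 0.0616 in U3 ASO. The groups did not overlap, and the adjusted p was again 0.845. This held for 4 of the 64 events, beside 6.28% of all events, the others being the 95-base MBNL2 exon, a 144-base QKI exon and a 40-base CELF1 exon. In siCtrl2 this exon was at 0.172, 0.135 and 0.133 and in siFUBP1 at 0.0741, 0 and 0, from 7 to 15 reads in a siFUBP1 library.

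**Figure D1:**
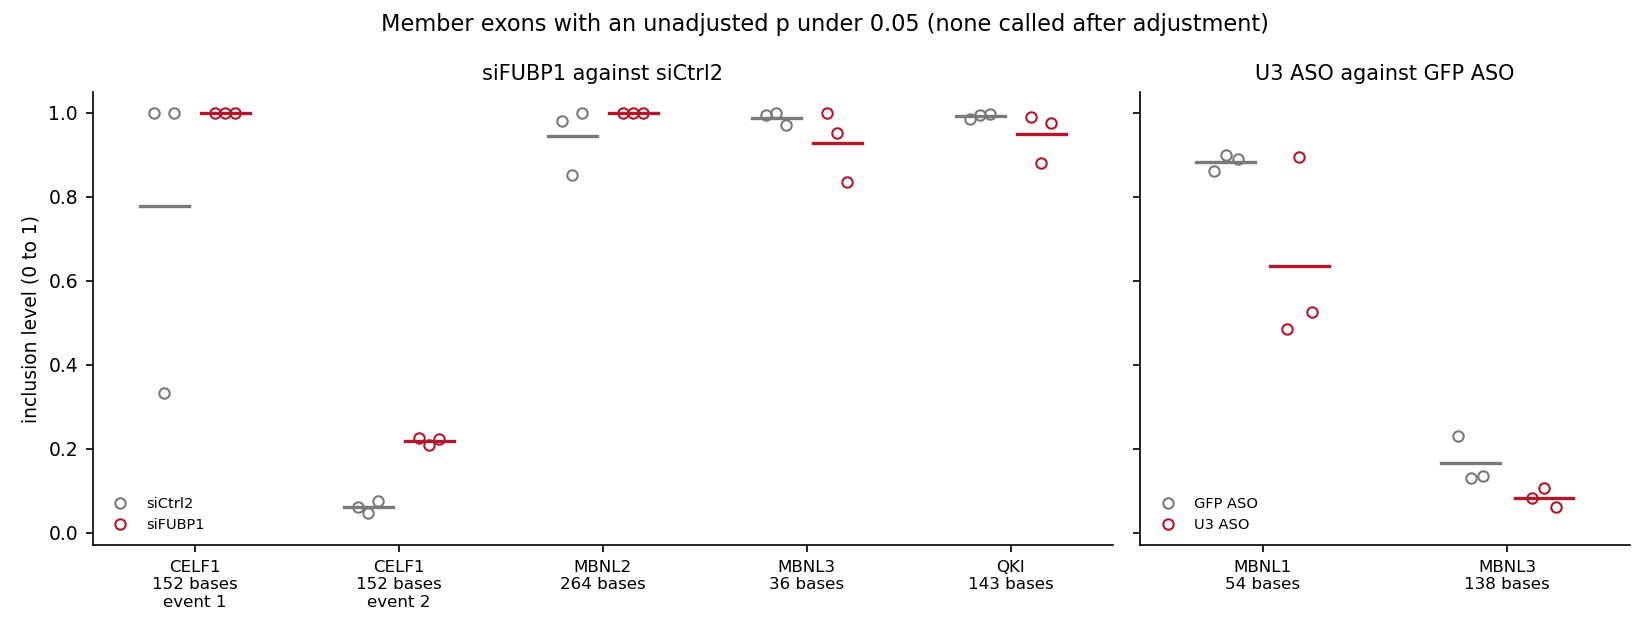
Inclusion level (0 to 1) in every library for the member exons with an unadjusted p under 0.05, after FUBP1 depletion (left) and U3 depletion (right); circles are libraries, bars are group means, controls are grey and depletions red. Groups are apart at the second CELF1 event (0.0482 to 0.0753 against 0.209 to 0.226) and the MBNL3 138-base exon, and no exon was called after adjustment.

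The 95-base exon of MBNL2 at chr13:97366459-97366553 (plus strand, coding in 3 of 4 transcripts) was at 0.892, 0.896 and 0.861 in GFP ASO and at 0.933, 0.914 and 0.956 in U3 ASO, without overlap and with an adjusted p of 0.845. In the FUBP1 comparison it was at 0.956, 0.831 and 0.934 and then at 0.814, 0.849 and 0.872, which overlap. The MBNL1 exon of the same length shared 85.3% of its bases and was at 0.925 or above in every library of the U3 comparison. The 78-base exons of PTBP2 and PTBP3, which shared 61.5%, were both at 0.827 or above there.

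The 170-base exon of PTBP3 at chr9:112275844-112276013 (minus strand, exon 3 of 14) was at 0.633, 0.779 and 0.8 in siCtrl2 and at 0.793, 0.566 and 0.648 in siFUBP1. In GFP ASO it was at 0.803, 0.505 and 0.737 and in U3 ASO at 0.734, 0.726 and 0.713, with the widest spread among controls. In the input comparison 1 siCtrl library had no read of this exon and dropped out of its fit, the other was at 1.0, and siFBL was at 0.92 and 0.692. The 74-base exon of MBNL3 at chrX:132381359-132381432 (minus strand, absent from the canonical transcript) was included in a minority of transcripts, at 0.137 to 0.167 in siCtrl2 and 0.158 to 0.202 in siFUBP1, and at 0.222 to 0.323 in GFP ASO and 0.248 to 0.298 in U3 ASO.

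The best measured exons of ESRP2 and PTBP2 in the deeper U3 table were included in most transcripts, unlike the PTBP2 34-base exon. The 133-base exon of ESRP2 at chr16:68232371-68232503 (minus strand, exon 8 of 15) was at 0.96 to 1.0 in GFP ASO and 0.982 to 0.99 in U3 ASO. In the FUBP1 comparison, with 53.2 reads per library, it was at 0.826, 0.982 and 0.914 in siCtrl2 and at 1.0, 1.0 and 0.6 in siFUBP1, where a single library was low. In the input libraries the 187-base exon of ESRP2 at chr16:68230841-68231027 was at 1.0 except for 1 siFBL library at 0.385. The 78-base exon of PTBP2 at chr1:96813029-96813106 (exon 13 of 14) was at 1.0 in all 3 GFP ASO libraries and at 0.964, 1.0 and 0.827 in U3 ASO. In the same table the 78-base exon of PTBP1 was at 0.662, 0.674 and 0.640 in GFP ASO and at 0.645, 0.607 and 0.624 in U3 ASO, and the QKI 143-base exon stayed at 0.950 to 0.987 in all 6 libraries.

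In the input libraries after FBL depletion, 22 of 24 listed events were tested, and 0 were called, beside 0 of 5218 over the table (0.0%). An unadjusted p under 0.05 was reached by none of the 22, beside 2.26% of all events, and limma on the log2 odds called none of them. Groups did not overlap for 3 of the 22, beside 15.8% of all events, in the PTBP1 34-base, PTBP3 170-base and a CELF1 111-base exon. For the PTBP3 exon only 1 siCtrl library had reads, and the share of all events likewise passes over libraries without reads. The 78-base exon of PTBP1 was at 0.487 and 0.580 in siCtrl and at 0.478 and 0.544 in siFBL. The 143-base exon of QKI was at 0.964 and 0.949 in siCtrl and at 0.889 and 0.952 in siFBL. The 138-base exon of MBNL3 was at 0.0962 and 0 and then at 0.0125 and 0.069, its 74-base exon at 0.272 and 0.0103 and then at 0.1 and 0.146, and the 95-base exon of MBNL2 at 0.969 and 1.0 and then at 1.0 in both, all with overlap. The information of an event is its reads per library times the inclusion share times the skipping share. Over events with information of at least 5, the median extra spread between libraries was 5.00, 5.89 and 6.63 times binomial for FUBP1, U3 and FBL. Many member events fell below that limit.

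The introns beside the named exons differed in the letters that the proteins are known to bind. In the 200 intron bases before the MBNL1 54-base exon (chr3:152446504-152446703), the MBNL tetramers (GC with a pyrimidine on each side) occurred 12 times, overlaps included, and 99.8% of the 29248 tested exons had fewer in that window, whose median was 2. None occurred in the 200 bases after the exon. In the 200 bases before the PTBP2 34-base exon (chr1:96806219-96806418), 98.2% of exons had fewer copies of TCTT. The hexamer of the same tract, CTCTCT, occurred before this exon, the PTBP1 78-base exon and the QKI 143-base exon, a window in which 11.8% of exons hold it. Only the RNA strand was searched, and both windows are printed with the matched letters in capitals.
MBNL1 intron before the 54-base exon: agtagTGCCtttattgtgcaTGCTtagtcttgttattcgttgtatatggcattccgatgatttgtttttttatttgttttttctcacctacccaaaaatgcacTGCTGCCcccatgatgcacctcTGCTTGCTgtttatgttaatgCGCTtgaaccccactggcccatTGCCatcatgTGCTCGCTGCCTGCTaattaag
PTBP2 intron before the 34-base exon: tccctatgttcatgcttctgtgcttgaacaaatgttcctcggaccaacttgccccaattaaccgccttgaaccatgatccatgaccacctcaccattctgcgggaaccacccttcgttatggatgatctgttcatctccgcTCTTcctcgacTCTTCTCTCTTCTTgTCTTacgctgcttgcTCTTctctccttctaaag

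The MBNL2 264-base exon had 12 MBNL tetramers in the 200 bases after it, more than 99.9% of exons. The 95-base exon of MBNL2 had 9 before it, more than 98.9%. High counts were not limited to exons of the matching family. The PTBP1 78-base and PTBP2 34-base exons each had 8 MBNL tetramers before them, more than 97.8% of exons. Each named MBNL3 exon had 2 before it, the median. TCTT occurred 5 times before the MBNL2 264-base exon, more than in 95.4% of exons, and 0 times before the PTBP1 78-base exon. The RBFOX hexamer TGCATG lay in the intron before the MBNL1 54-base, MBNL1 36-base, MBNL3 36-base and MBNL2 95-base exons, a window in which 5.64% of all tested exons hold it. The MBNL2 36-base exon was not among the named exons, but its printed flank holds TGCATG before the exon too. The hexamer also lies inside the 36-base exons of MBNL1, MBNL2 and MBNL3 and the MBNL2 264-base exon. TGCATG occurred 2 times after the PTBP2 34-base exon and once after the PTBP1 78-base exon, a window in which 6.24% of exons hold it. The QKI letters ACTAAC occurred after the MBNL1 36-base exon (2.2% of exons) and before the 133-base exon of ESRP2 (2.53% of exons). The GU-rich letters TGTGTG, searched for CELF1, occurred before the named CELF1 exon (10.6% of exons) and in the windows of no other named exon. A match is a description of the sequence and not a measured binding site.

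Turning from exons to the amount of RNA, the tables allow only the junction reads summed over the listed events of a gene. They are given per 1000000 junction reads summed over all listed events of the library. Such a level was compared between libraries and not between genes, since a junction may count in several events.

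MBNL3, whose product belongs to the MBNL family but is the least widely expressed of its members, fell after FUBP1 depletion. It was at 233, 221 and 184 junction reads per 1000000 in siCtrl2 and at 98.3, 92.4 and 102 in siFUBP1. All siFUBP1 libraries lay below all controls. The log2 difference was -1.11 ± 0.14 (SE), with an adjusted p of 6.86e-05 by limma, and the fold was 0.459. Under the alternatives the log2 difference lay between -1.21 and -0.91, with adjusted p from 4.09e-05 to 0.000924. Each of its 3 events had fewer reads, at 0.529, 0.426 and 0.207 times the control mean, the last at the 138-base noncoding exon. Over all genes tested the call was made for 5.74% in the higher and 6.48% in the lower direction of 6432 genes, and 3.98% of genes had a lower difference than MBNL3. The level is a share of the junction reads of a library, so the number of cells as such does not enter it. Whether fewer of the cells held MBNL3 RNA or each held less cannot be told apart in such bulk samples.

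ESRP2 was the other member called lower, at 61.1, 91.6 and 81.8 in siCtrl2 and 51.7, 50.3 and 52.7 in siFUBP1. The log2 difference was -0.58 ± 0.20 (SE), adjusted p = 0.0898 by limma. The call was lost with scaling by the median ratio (adjusted p = 0.112 by limma), with only the best covered event (0.421) and when any library other than the first listed of siCtrl2 was left out, with adjusted p from 0.147 to 0.295. The other 7 members measured were not called. MBNL2 was at 87.7, 104 and 104 in siCtrl2 and 111, 116 and 128 in siFUBP1, and PTBP1 at 390, 409 and 467 and then 509, 475 and 490. Groups did not overlap for either, beside 11.4% of genes higher without overlap, and the adjusted p were 0.353 and 0.209 by limma. Both called members were lower without overlap, as were 14.4% of genes. QKI stayed close to its control mean, with a log2 difference of 0.01 ± 0.10 (SE).

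After U3 depletion, 7 of 9 measured members were called higher and none lower, beside 36.8% higher and 10.4% lower of 8548 genes. The median of all genes was itself 0.27 higher on the log2 scale, so changes are given relative to it as well. ESRP2 was at 124, 107 and 113 in GFP ASO and at 250, 251 and 244 in U3 ASO, a log2 difference of 1.11 ± 0.09 (SE, adjusted p = 6.70e-09 by limma) and of 0.85 beyond the median of all genes. MBNL2 was at 41.8, 44.1 and 35.8 and then at 81.7, 87.9 and 94.0, a log2 difference of 1.11 ± 0.13 (SE, adjusted p = 1.75e-06 by limma) and of 0.84 beyond the median. PTBP2 was at 7.82, 7.60 and 5.84 and then at 13.2, 16.5 and 12.8, a log2 difference of 0.95 ± 0.28 (SE, adjusted p = 0.0100 by limma) and of 0.68 beyond the median. Groups did not overlap for these 3, nor for MBNL1, MBNL3 and QKI, and all 6 were higher, beside 38.3% of genes higher without overlap and 11.1% lower.

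The remaining calls depended on the scaling, and most of them also on the events used. MBNL3, MBNL1, QKI and PTBP3 had log2 differences of 0.48, 0.44, 0.37 and 0.34, which came to 0.21, 0.17, 0.10 and 0.08 beyond the median of all genes. With scaling by the median ratio, under which 1576 genes were called higher and 1644 lower, none of these 4 was called. ESRP2, MBNL2 and PTBP2 were still called higher, and CELF1, at 130, 127 and 131 in GFP ASO and 134, 117 and 131 in U3 ASO, was then called lower with a log2 difference of -0.28 (adjusted p = 0.0301 by limma). PTBP1 was not called, and its sign turned from 0.07 to -0.17. With only its best covered event the call of PTBP2 was lost (adjusted p = 0.275).

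**Figure D2:**
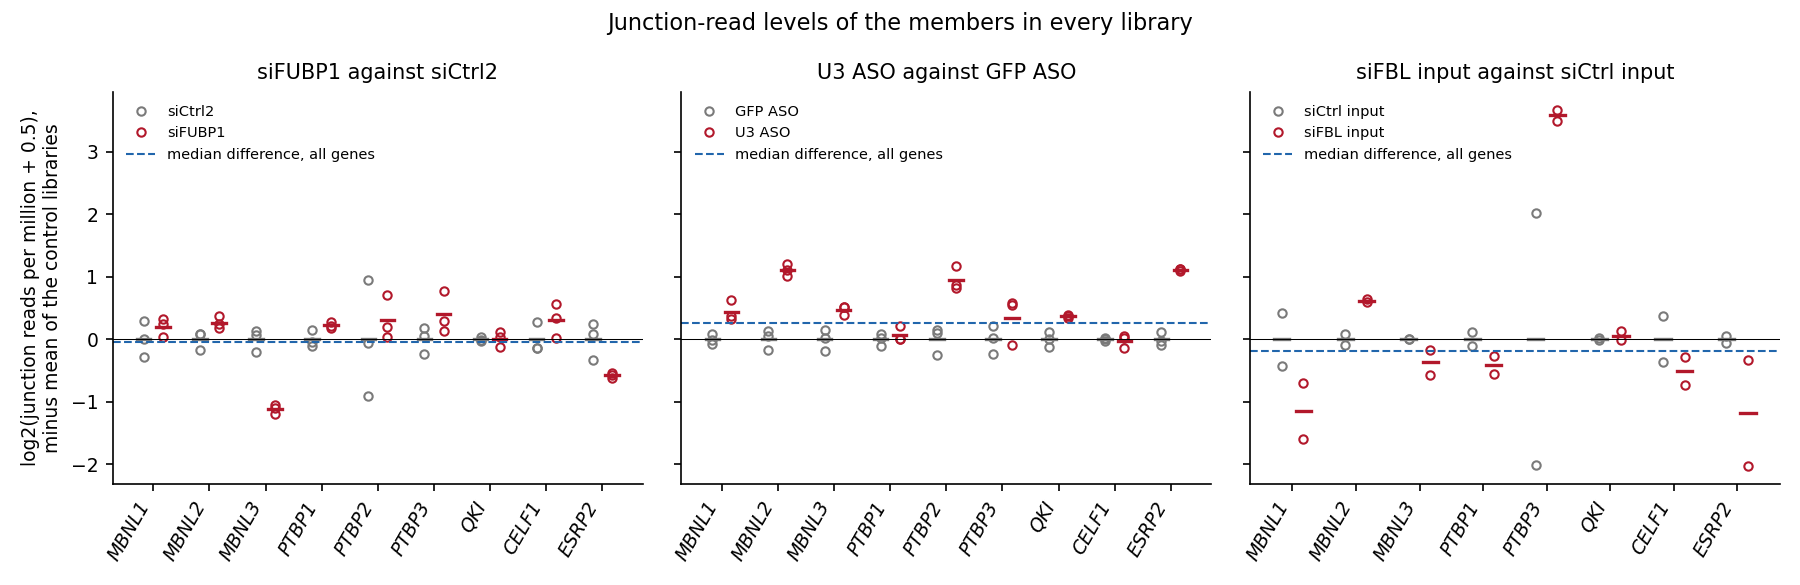
Log2 of junction reads per 1000000 plus 0.5, minus the mean of the control libraries, for each member in the 3 comparisons; circles are libraries, bars are group means, controls are grey and depletions red, and the dashed line is the median difference of all genes. MBNL3 lies near -1.11 after FUBP1 depletion, and ESRP2 and MBNL2 near 1.11 after U3 depletion, where the dashed line is at 0.27.

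After FBL depletion 0 of the 8 measured members were called by limma, beside 0.777% higher and 2.86% lower of 3217 genes, while 1 of the 8, MBNL1, had an unadjusted p under 0.05. Over all genes 13.6% had such a p. MBNL1 was at 129 and 231 in siCtrl input and 56.8 and 106 in siFBL input (adjusted p = 0.189 by limma). With 2 libraries a group, 6 of the 8 members did not overlap between groups: MBNL1, MBNL3, PTBP1 and ESRP2 were lower, beside 29.5% of genes, and MBNL2 and PTBP3 higher, beside 14.2%. PTBP3 was listed at 0 and 7.69 in siCtrl input and at 25.2 and 22.3 in siFBL input, from 13.2 reads per library on average, too few for a firm comparison.

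FUBP1 RIP separated the members into 2 groups. Enrichment is the deposited log2 ratio of RIP over input, with its standard error. In siCtrl cells 8 of 10 members were enriched and 2 depleted, beside 41.1% enriched and 38.9% depleted of 14242 genes. MBNL2 was highest at 4.10 (95% interval 3.96 to 4.23), above 98.3% of genes, followed by MBNL1 at 3.58 (3.45 to 3.71). Their intervals did not overlap. PTBP3 at 3.23 (3.09 to 3.36), PTBP2 at 3.22 (2.86 to 3.57), QKI at 3.18 (3.09 to 3.26) and MBNL3 at 2.96 (2.81 to 3.10) came next, and each overlapped its neighbour in this order. CELF1 followed at 2.34 (2.19 to 2.5) and RBFOX2 at 1.76 (1.28 to 2.23), which overlapped each other as well. PTBP1 at -1.25 (-1.39 to -1.10) and ESRP2 at -2.08 (-2.40 to -1.76) were the depleted members. The intervals rest on 2 RIP and 2 input libraries, through the authors' fit.

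In siFBL cells the same 8 were enriched and the same 2 depleted, beside 39.7% enriched and 37.5% depleted over all genes. MBNL2 remained highest at 3.62 (3.49 to 3.74). MBNL1 was at 3.39 with a standard error of 0.38, and of the 5032 genes whose mean count reached 1000 in both conditions only 16 had a standard error as large, so its value is the least certain of the abundant members.

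The enrichment of 4 members was lower in siFBL than in siCtrl and that of none was higher, beside 6.64% lower and 5.36% higher over all genes. PTBP3 differed by -0.60 (-0.80 to -0.40, adjusted p = 3.07e-07), MBNL2 by -0.48 (-0.66 to -0.29, adjusted p = 2.26e-05) and MBNL3 by -0.46 (-0.63 to -0.29, adjusted p = 5.99e-06), from a Wald test on the deposited estimates. These 3 calls held under the alternatives tried, which changed only the filter on counts, the centring or the threshold. Enrichment over protein-coding genes spanned a narrower range in siFBL. The median was 1.15 for genes of 100 kb or more, beside 1.27 in siCtrl, and -1.37 for those under 20 kb, beside -1.57. The part of this narrower range in the differences was not tested. QKI differed by -0.18 (-0.31 to -0.04, adjusted p = 0.0839), a call lost without a filter on counts (0.102) and with enrichment centred on the median of all genes (0.207). The differences of CELF1 (-0.22, -0.42 to -0.01, adjusted p = 0.209) and MBNL1 (-0.19, -0.94 to 0.56) were not called. Those of PTBP2 (0.13, -0.35 to 0.62), RBFOX2 (0.14, -0.53 to 0.81), ESRP2 (0.37, -0.19 to 0.92) and PTBP1 (-0.01, -0.24 to 0.22) were not called either, and for the first 3 the intervals include differences as large as those called.

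**Figure D3:**
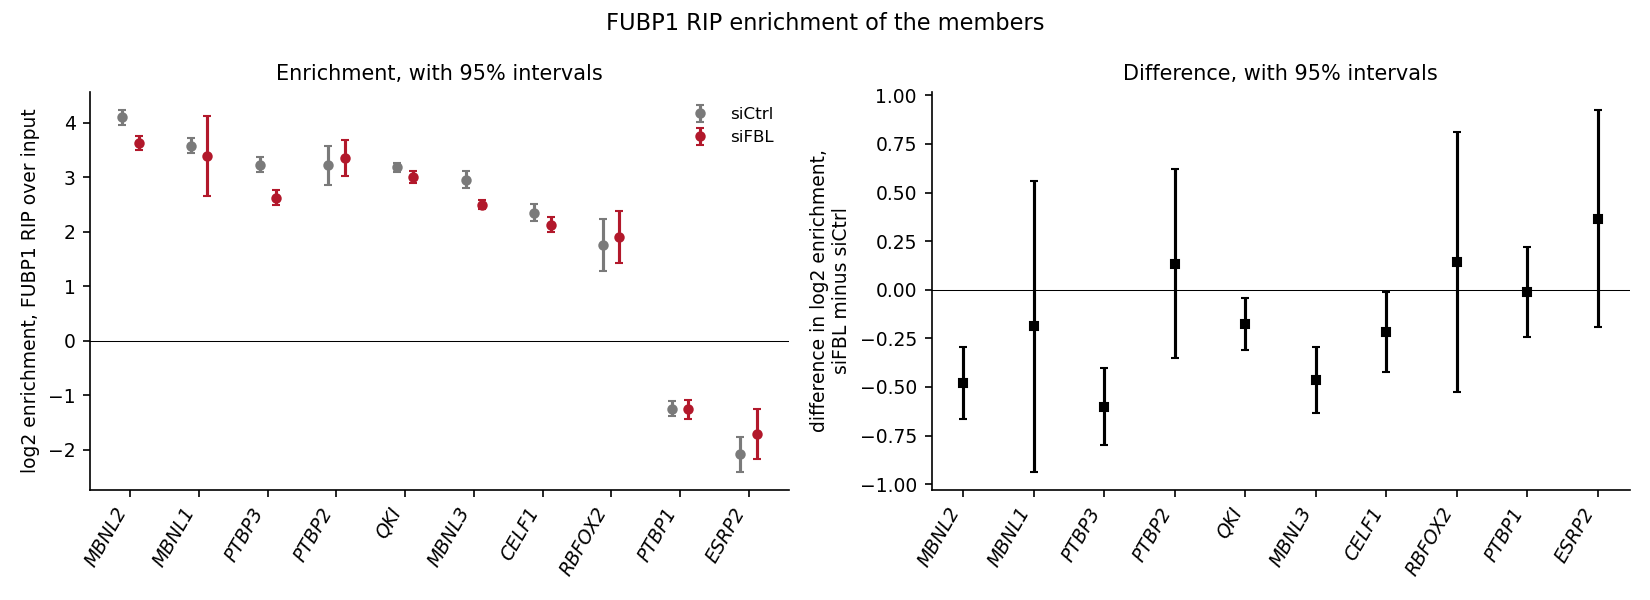
Left, log2 enrichment of FUBP1 RIP over input for the 10 members in siCtrl (grey) and siFBL (red); right, siFBL minus siCtrl; points are the deposited estimates and their difference, with 95% intervals from the standard errors. PTBP1 and ESRP2 lie below 0 in both conditions, and the intervals of PTBP3, MBNL2, MBNL3, QKI and CELF1 on the right lie below 0.

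The 2 depleted members were also the shortest genes. PTBP1 spans 15.25 kb and ESRP2 9.07 kb in GENCODE, and the other 8 span 99.64 to 290.1 kb. Over 12413 protein-coding genes enrichment in siCtrl rose with gene span (Spearman's rho 0.435, a description across genes measured in the same libraries), with a median of -1.57 under 20 kb and 1.27 at 100 kb or more. Among genes of like span, PTBP1 lay above 55.2% and ESRP2 above 40.3%, whereas MBNL2 lay above 96.9%, MBNL1 above 94.6%, PTBP3 above 91.8% and QKI above 91.1% of the genes of 100 kb or more. RBFOX2, the longest, lay above 63.4%. The difference between siFBL and siCtrl went the other way with span (rho -0.174), with a median of -0.08 at 100 kb or more, and there PTBP3 lay above 12.6%, MBNL2 above 17.6% and MBNL3 above 18.1%. The part of gene span in the enrichment of the members was not tested.

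**Figure D4:**
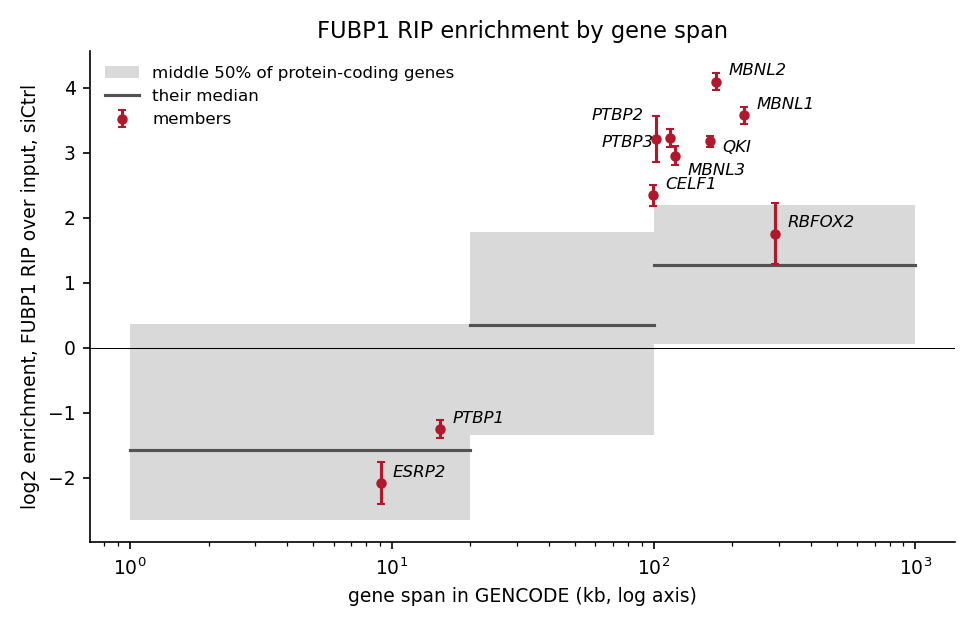
Log2 enrichment of FUBP1 RIP over input in siCtrl (vertical) against gene span in kb (log axis); red points are the members with 95% intervals, grey bands the middle 50% of protein-coding genes in 3 span classes, and lines their medians of -1.57, 0.36 and 1.27. PTBP1 and ESRP2 lie inside the band of short genes, RBFOX2 inside that of long genes, and the other 7 above theirs.

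Other regulators and genes with known target exons were examined as lists, drawn up with earlier results of these data known. Of 41 other splicing regulators, 17 had a level in the FUBP1 comparison. Of these 0 were called higher and 4 lower, beside 5.74% and 6.48% of all genes. The 4 were RBM38 (-1.01 ± 0.24, SE), PCBP2 (-0.47 ± 0.08), STAU1 (-0.31 ± 0.11) and MATR3 (-0.28 ± 0.10). The median log2 difference of the 17 was -0.06 beside -0.05 for all genes. In the U3 comparison 11 of 21 were called higher and 1, A1CF, lower, beside 36.8% and 10.4% of all genes. Their median was 0.23 beside 0.27 for all genes. Of their exon events 0 of 61 passed the quasi-binomial test after FUBP1 depletion, beside 0.197% of all events. An unadjusted p under 0.05 was reached by 6, beside 4.59%. After U3 depletion 1 of 89 passed, in TIA1, beside 0.226%, and 8 reached such an unadjusted p, beside 4.13%. After FBL depletion 0 of 25 passed and 0 reached such an unadjusted p, beside 0.0% and 2.26%. By RIP, 21 of 29 were enriched and 4 depleted in siCtrl, beside 41.1% and 38.9% of all genes. In siFBL 7 were lower and 0 higher than in siCtrl, beside 6.64% lower and 5.36% higher of all genes. Their median enrichment in siCtrl was 1.21. The median of the 10 members was 3.07 and that of all genes 0.08.

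For 38 genes with textbook exons under control of these regulators, every tested event was taken, whether or not at such an exon. After FUBP1 depletion these were 148 events in 33 genes, with 10 at an unadjusted p under 0.05, beside 4.59% of all events. The quasi-binomial test called 1, beside 0.197% of all events. It was the 24-base exon of FLNA at chrX:154357251-154357274, which encodes part of the actin crosslinker filamin A. Its inclusion ranged from 0.67 to 0.766 in siCtrl2 and from 0.321 to 0.358 in siFUBP1. The change was -0.366 (adjusted p = 2.11e-11, quasi-binomial test with spread from limma's trend across events). After U3 depletion the test called 0 of 204 events of the listed genes (10 at an unadjusted p under 0.05, beside 4.13% of all events). After FBL depletion it called 0 of 58 (1 at an unadjusted p under 0.05, beside 2.26%). Their levels were called higher for 4 and lower for 3 of 34 genes after FUBP1 depletion and higher for 22 and lower for 2 of 34 after U3 depletion, beside the shares of all genes given above, with medians of 0.07 and 0.36 on the log2 scale beside -0.05 and 0.27 for all genes. By RIP, 19 of 36 were enriched and 14 depleted in siCtrl, beside 41.1% and 38.9% of all genes, with a median of 0.51 beside 0.08. The enrichment of 7 was higher and of 2 lower in siFBL than in siCtrl, beside 5.36% and 6.64% of all genes. The median difference was 0.03 beside -0.002 for all genes. The median absolute change of the tested events of these genes was 0.0368 after FUBP1 depletion, beside 0.0299 for all events and 0.0418 for the events of the members.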

How the data were processed

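HepG2 RNA was trimmed with Cutadapt and aligned to hg38 with HISAT2 by the authors, with no versions given in the sources used here. Skipped exons were counted by rMATS, and the deposited tables list inclusion and skipping junction reads (counts in lists, 1 entry per library, without replicate numbers). RIP and input reads were counted per gene (HTSeq in the methods, featureCounts in the submitters' processing notes). The log2 enrichment and its standard error, deposited by the authors from DESeq2, were used per condition, and the deposited mean normalized count only as a score for filters. The authors' p-values, false discovery rates, inclusion differences and 6 columns of inclusion levels per library were not used.

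Events averaging 10 or more reads a library entered a quasi-binomial F test whose spread was set with limma 3.58.1 (R 4.3.3). The fitted prior was so strong that the trend across events replaced the spread of each event's own libraries. Levels were tested with limma on log2(reads per 1000000 + 0.5). P-values were adjusted over all events or genes by Benjamini-Hochberg and called under 0.1. RIP genes needed a mean count of at least 10. Enrichments were tested with a two-sided Wald test, and their difference with both standard errors combined. The tests were also run on simulated data. A first simulation, with spread growing with depth, recovered almost no changed event. Its spread was then reset to 5 times binomial in every comparison, beside medians of 5.00, 5.89 and 6.63 in the real data. The planted changes in inclusion were large, so the simulation does not show whether smaller ones would be found.

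Named exons were those called, those with an unadjusted p under 0.05, and the best measured exon of each member in each table, each also given in other tables. The members, lists and tests were chosen with earlier results of these data known. Sequences and exons came from hg38 and GENCODE release 44. Intervals cover 95% and rest on the deposited errors. Junction reads carried no molecular identifiers named in the labels. Alternatives were other tests, filters, scalings, pseudocounts and leaving out each library.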

Additional observations from a re-analysis of the deposited data

How the results depend on the processing

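Exon calls did not depend on the processing: 0 member events were called in each of the 3 comparisons under every alternative run, including the adjusted p threshold of 0.05. Over all genes, limma with a trend of the variance on event information called 88, 254 and 6 events in the FUBP1, U3 and FBL tables, against 32, 68 and 0 in the quasi-binomial test, and without a trend 8, 0 and 0. With 1 library left out the quasi-binomial test called 20 to 30 and 33 to 60 events in the FUBP1 and U3 tables. That trend had first been run on the mean log2 odds, which called 2, 0 and 0, and was moved to the information after those calls were seen. No paired analysis was possible because the lists of reads carry no replicate numbers, and a library left out is known only by its place in the list of its group.

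Levels moved more. After FUBP1 depletion 2 members were called, 1 with median ratio scaling, 1 with the best covered event and 1 to 2 with a library left out, and MBNL3 was called each time. After U3 depletion 7 were called, 4 with median ratio scaling, 3 with the best covered event and 6 to 7 with a library left out. The cause was not tested. For FBL depletion 0 were called throughout. RIP calls in siCtrl and siFBL numbered 10 throughout, and the difference 3 or 4. Depth and the spread between libraries limit single exons, above all in the input libraries.

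Signs turned only for values that were not called. With only the best covered event, the log2 level difference of CELF1 turned to -0.0556 (FUBP1) and 0.133 (U3) and that of QKI to -0.0167 (FBL), and PTBP1 (U3) turned to -0.173 with median ratio scaling. With 1 library left out, log2 level differences ran over 0 for QKI (FUBP1) -0.0442 to 0.0799, PTBP2 (FUBP1) -0.136 to 0.452, CELF1 (U3) -0.0655 to 0.0314, QKI (FBL) -0.017 to 0.132, and changes in inclusion for MBNL1 36-base (FUBP1) -0.0682 to 0.0278, ESRP2 133-base (FUBP1) -0.107 to 0.0928, PTBP3 170-base (U3) -0.0456 to 0.103, QKI 143-base (U3) -0.00305 to 0.0177, MBNL3 74-base (U3) -0.0379 to 0.0123, MBNL1 36-base (FBL) -0.61 to 0.0404, MBNL3 74-base (FBL) -0.149 to 0.113, PTBP1 78-base (FBL) -0.0692 to 0.024, CELF1 152-base (FBL) -0.334 to 0.068. The difference in RIP enrichment of PTBP1 became 0.0215 when centred.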
